A study of Mus musculus with 10 samples.

Results

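The genes described here encode 10 transcription regulators of the circadian clock that sit just outside its core loop: the PAR-bZIP activators *Dbp*, *Tef* and *Hlf*, their antagonist *Nfil3*, the Rev-Erb receptors *Nr1d1* and *Nr1d2*, the opposing receptor *Rora*, the Dec repressors *Bhlhe40* and *Bhlhe41*, and *Ciart*. They were chosen by symbol from the 55453 gene symbols of the count table, and all 10 were present and passed the low-count filter that left 14614 genes for testing. RNA was sequenced from the whole aortae of 10 male C57BL/6 mice, 5 young mice aged 14.5 weeks and 5 old mice aged 92.5 weeks, with 1 library per mouse. Both groups were fed standard chow, the vessels were cleaned of surrounding fat, and the labels name neither an engineered allele nor a drug. Both ages were killed at the same time, but the hour of collection of each mouse is not given in the sources used here. In whole tissue, fewer cells of a type and less RNA per cell cannot be told apart.

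The clock is a feedback loop present in nearly every cell. CLOCK and its partner BMAL1 (encoded by *Arntl*) bind E-boxes and drive the *Per* and *Cry* repressors, and they drive the PAR-bZIP, Rev-Erb, Dec and *Ciart* genes through the same elements. The PAR-bZIP proteins activate D-box genes that NFIL3 represses, and Rev-Erb receptors repress the response elements that ROR receptors activate, *Arntl* and *Nfil3* among their targets. In the vessel wall the smooth muscle and endothelial cells each hold such a clock, and transcripts of these genes rise and fall over the day. With both ages killed at the same time, a shift in the timing of this rhythm and a change in level cannot be told apart.

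Because E-boxes and Rev-Erb elements connect these genes, the sequences around their start sites were searched. RefSeq promoter windows on GRCm38.p6, covering 250 bases before to 50 bases after a start site, were found for 9 of the 10 genes, 10 windows in all, and *Tef* had 2 of them. No window was found for *Bhlhe40*, so it was not searched. Each motif was searched on both strands. The E-box, CACGTG, was found in 7.15% of all 32851 mouse promoter windows, and 0.0883% held 3 copies or more. The E-prime box, CACGTT, was found in 4.68%, the Rev-Erb and ROR half-site, AGGTCA, in 16.3%, the D-box, TTANGTAA, in 2.32%, and the cAMP response element, TGACGTCA, in 1.79%. No letters of one motif found in these windows overlapped those of another.

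The 4 windows below are shown because they hold E-boxes of *Ciart*, *Bhlhe41* and *Tef*, all higher in old aortae, and the half-site of *Nfil3*, which was lower. Not shown are the upstream *Tef* window, which also holds an E-box, and that of *Nr1d2*, which holds the same half-site but was higher. The 4 windows read 5′ to 3′ on the gene's strand, and capitals mark the motif, which for *Nfil3* is read on the other strand. The *Ciart* window is chr3:95882179-95882478, minus strand, that of *Bhlhe41* is chr6:145865371-145865670, minus strand, that of the downstream start of *Tef* is chr15:81811164-81811463, plus strand, and that of *Nfil3* is chr13:52980990-52981289, minus strand.
Ciart: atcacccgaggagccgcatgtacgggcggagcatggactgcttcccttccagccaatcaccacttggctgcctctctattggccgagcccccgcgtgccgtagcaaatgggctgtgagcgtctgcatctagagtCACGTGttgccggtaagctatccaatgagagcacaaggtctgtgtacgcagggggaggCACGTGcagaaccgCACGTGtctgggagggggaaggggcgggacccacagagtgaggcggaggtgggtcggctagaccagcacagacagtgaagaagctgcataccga
Bhlhe41: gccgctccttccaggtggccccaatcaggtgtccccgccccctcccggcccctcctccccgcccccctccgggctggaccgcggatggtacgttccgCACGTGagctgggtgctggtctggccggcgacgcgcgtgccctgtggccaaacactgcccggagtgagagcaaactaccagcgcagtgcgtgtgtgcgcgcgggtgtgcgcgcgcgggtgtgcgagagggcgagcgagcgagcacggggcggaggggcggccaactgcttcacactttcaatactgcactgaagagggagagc
Tef: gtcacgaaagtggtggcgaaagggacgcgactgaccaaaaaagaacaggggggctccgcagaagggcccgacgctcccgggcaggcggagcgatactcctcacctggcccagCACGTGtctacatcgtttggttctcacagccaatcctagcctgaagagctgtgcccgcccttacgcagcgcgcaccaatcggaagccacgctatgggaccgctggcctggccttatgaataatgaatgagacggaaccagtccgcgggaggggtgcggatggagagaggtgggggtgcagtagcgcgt
Nfil3: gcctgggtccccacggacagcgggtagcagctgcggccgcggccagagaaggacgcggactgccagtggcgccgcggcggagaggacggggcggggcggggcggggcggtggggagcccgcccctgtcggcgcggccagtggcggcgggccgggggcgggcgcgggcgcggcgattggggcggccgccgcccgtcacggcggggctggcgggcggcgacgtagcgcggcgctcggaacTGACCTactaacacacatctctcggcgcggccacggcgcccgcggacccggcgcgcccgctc

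*Ciart* held 3 E-boxes, which began at -116, -58 and -44 bases from the annotated start. *Bhlhe41* held 1 at -153, and the *Tef* windows held 1 each, at -127 and -138. The half-site in *Nfil3* began at -12 bases and that in *Nr1d2* at -77, *Nr1d1* held an E-prime box at -28, and *Hlf* held a cAMP response element at -9. None of the letters searched occurred in the windows of *Dbp* and *Rora*. These are matches of letters in short windows and do not show that a factor was bound there.

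**Figure D1:**
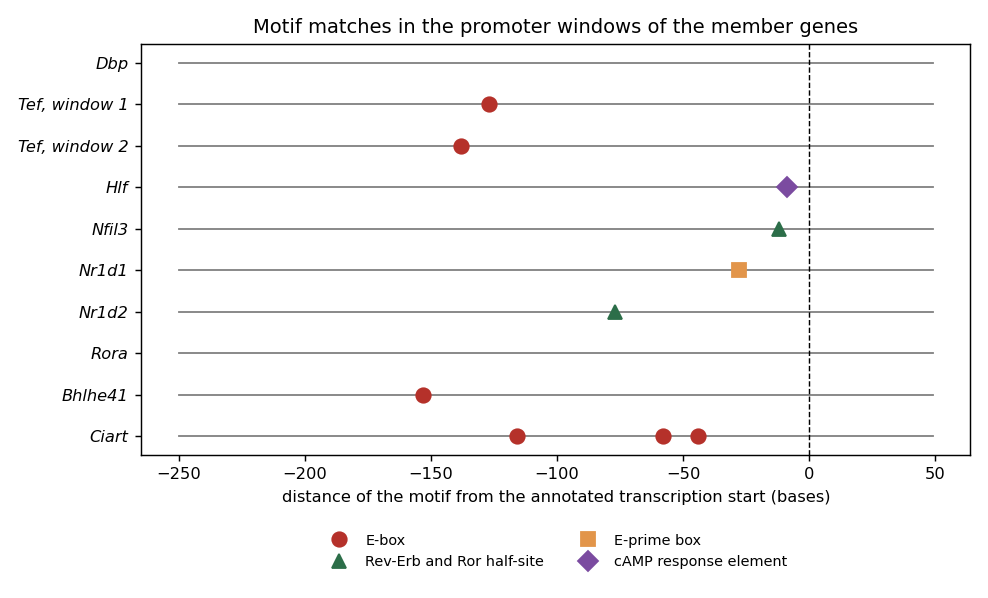
Positions of motif matches in the 10 promoter windows found for the genes, from 250 bases before to 50 bases after the annotated start (x axis, distance in bases; one grey line per window, symbols by motif). *Ciart* is the window with 3 E-boxes, and the windows of *Dbp* and *Rora* hold no match.

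Among the 10 genes, 6 rose and 2 fell with age in edgeR's quasi-likelihood test at a Benjamini-Hochberg adjusted p below 0.05, where 11.5% of all tested genes were called, 6.48% higher and 4.99% lower in old aortae. *Dbp*, *Tef*, *Hlf*, *Nr1d2*, *Bhlhe41* and *Ciart* rose, *Nfil3* and *Rora* fell, and *Nr1d1* and *Bhlhe40* did not pass. In 7 of the 10 genes no old aorta overlapped a young one, against 9.92% of all tested genes. The median log2 fold change (old over young) was 0.95 over the 10 genes and 0.0034 over all genes tested. Positions of genes are on GRCm38, and levels below are normalized counts, that is, counts divided by the size factor of the library, and values per mouse follow the order of replicates 1 to 5. The plot of normalized counts by mouse shows all 10 genes, and the plot of fold changes sets them beside the core loop.

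**Figure D2:**
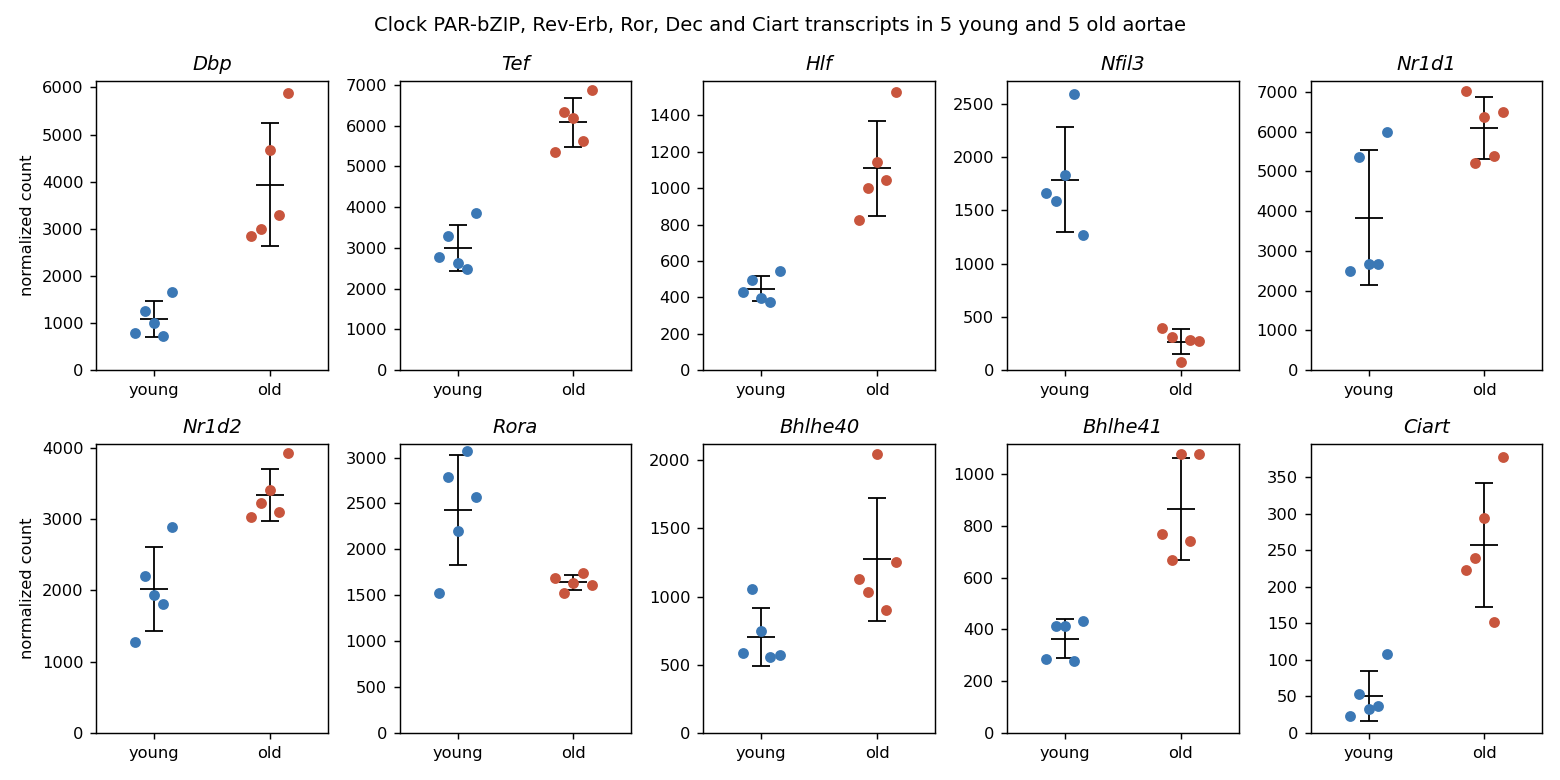
Normalized counts (y axes, linear, starting at 0) of the 10 genes in 5 young and 5 old aortae, with one point per mouse and the mean ± SD in black. *Nfil3* lies between 1267 and 2589 in young aortae and at 395 or less in old ones, and points of the ages overlap only for *Nr1d1*, *Rora* and *Bhlhe40*.

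The PAR-bZIP activators rose together. *Dbp* (chr7:45705088-45710203), whose daily swing is among the widest of the clock output factors, had 781, 1246, 996, 725 and 1657 normalized counts in the young aortae. The old aortae had 2851, 2991, 4679, 3296 and 5876. Every old aorta lay above every young one, and replicate 5 was the highest of each age. Mean levels were 1081 ± 382 for the young and 3939 ± 1303 for the old group (SD, n = 5), 3.64-fold apart, with a log2 fold change of 1.87 (SE 0.28, adjusted p = 0.00282). The exons of *Dbp* and of *Sphk2*, on the opposite strand, share 539 bases, 18.0% of the exonic length of *Dbp*. *Sphk2*, which encodes a sphingosine kinase, went the other way, from 929 ± 95.3 to 686 ± 87.0 normalized counts (log2 fold change -0.43, SE 0.09, adjusted p = 0.0111).

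*Tef* (chr15:81802421-81826863) had 2777, 3285, 2624, 2474 and 3857 normalized counts in the young mice and 5356, 6335, 6194, 5634 and 6874 in the old mice. The groups were well apart, and the old aortae varied by 9.84% of their mean (coefficient of variation) against 18.9% for the young ones. The log2 fold change was 1.03 (SE 0.12, adjusted p = 0.000194), the smallest of the 3 activators but with the smallest p of the 10 genes. *Hlf* (chr11:90336536-90390895), the least abundant activator, had 429, 496, 399, 374 and 543 normalized counts in young aortae. In old aortae it had 823, 1003, 1141, 1043 and 1530.3, again without overlap, and its log2 fold change was 1.31 (SE 0.16, adjusted p = 0.000375). The calls of *Dbp*, *Tef* and *Hlf* held in all 19 alternatives run, the replicate block and the threshold of 0.01 included, with a highest adjusted p of 0.00963.

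*Nfil3* (chr13:52967209-52981073), the D-box repressor, moved in the opposite direction. In young aortae it had 1667, 1584, 1836, 2589 and 1267 normalized counts and in old aortae 395, 307, 75.5, 284 and 278. The lowest young value was more than 3 times the highest old value, and old replicate 3 stood lowest. Young replicate 4 was the highest for *Nfil3* and the lowest for *Dbp*, *Tef* and *Hlf* among the young mice. The log2 fold change was -2.74 (SE 0.36, adjusted p = 0.00173), the largest of the 10 genes in size, and it lay between -2.92 and -2.49 when any 1 mouse was omitted. None of its 50-base windows occurred in another gene's transcripts.

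Scaled by exonic length, the sum of *Dbp*, *Tef* and *Hlf* was close to the level of *Nfil3* in young aortae and many times above it in old aortae. The log2 ratio was -0.28, 0.22, -0.32, -1.06 and 0.85 in young mice and 3.17, 3.69, 6.08, 3.81 and 4.48 in old mice. The ratio was therefore below 0 in 3 young mice and above 3 in every old mouse. The mean difference was 4.37 on the log2 scale (-0.12 ± 0.71 for young and 4.25 ± 1.13 for old mice, SD, n = 5), given as a description without a test.

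**Figure D3:**
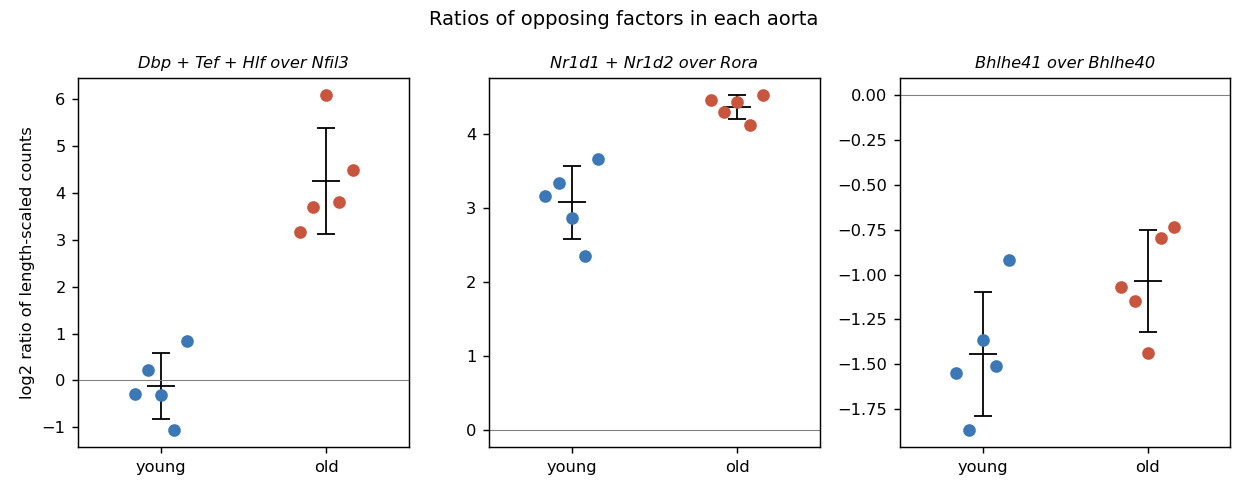
Log2 ratio of length-scaled normalized counts in each aorta (y axes, a separate range for each panel) for *Dbp* + *Tef* + *Hlf* over *Nfil3*, *Nr1d1* + *Nr1d2* over *Rora*, and *Bhlhe41* over *Bhlhe40*, with one point per mouse and the mean ± SD in black. The ages do not overlap in the first and second ratios, whose means differ by 4.37 and 1.29, and they overlap in the third.

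The Rev-Erb receptors, heme-binding repressors of *Arntl*, were both higher on average in old aortae, but only *Nr1d2* passed the test. *Nr1d2* (chr14:18204054-18239127) had 1273, 2198, 1936, 1811 and 2888 normalized counts in the young group, and the old group had 3026, 3227, 3411, 3098 and 3926. The groups did not overlap, but young replicate 5 lay only just below the lowest old aorta. Its log2 fold change was 0.73 (SE 0.18, adjusted p = 0.0237). The call was lost without young replicate 4 (adjusted p = 0.0648), without old replicate 3 (0.0558) or 5 (0.0565), and without the low-count filter (0.0841).

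*Nr1d1* (chr11:98767932-98775333) had 2488, 5358, 2681, 2681 and 5986 normalized counts in young aortae, and replicates 2 and 5 stood far above the other three. The old aortae had 7027, 5211, 6354, 5376 and 6495, and the lowest of them lay below both high young aortae. The log2 fold change of 0.68 (SE 0.26, adjusted p = 0.136) was not called, and without young replicate 5 the adjusted p was 0.0429. The exons of *Nr1d1* overlap those of *Thra*, a thyroid hormone receptor gene on the opposite strand, by 263 bases, 8.55% of the exonic length of *Nr1d1*. *Thra* went from 6643 ± 465 to 4917 ± 293 normalized counts with age (log2 fold change -0.43, SE 0.06, adjusted p = 0.00108).

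*Rora* (chr9:68653786-69388246), whose product activates the elements that Rev-Erb proteins repress, had 1523, 2785, 2200.5, 3074 and 2568 normalized counts in young aortae. In old aortae it had 1689.9, 1523, 1635, 1744 and 1613. Young replicate 1 (1523.2) lay just below the lowest old aorta (1523.4), whereas the other 4 young aortae lay above all of the old ones. The log2 fold change was -0.56 (SE 0.15, adjusted p = 0.0371). The spread was 24.6% of the mean in young and 5.07% in old aortae. Of the 8 calls this one was lost most often, in 10 of the 18 alternatives at this threshold, among them the replicate block (adjusted p = 0.0684), the omission of any of the old mice (adjusted p 0.0580 to 0.0788) or of young replicate 2, 4 or 5 (0.0731 to 0.0813). Without young replicate 1 the adjusted p was 0.000304.

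The log2 ratio of length-scaled *Nr1d1* plus *Nr1d2* over *Rora* was 3.16, 3.33, 2.87, 2.36 and 3.66 in young and 4.46, 4.30, 4.43, 4.12 and 4.52 in old aortae. The ages did not overlap in this ratio, although they did for *Nr1d1* and for *Rora* alone. Its mean went from 3.08 ± 0.49 in the young group to 4.37 ± 0.16 in the old group (SD, n = 5, not tested).

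The Dec proteins bind E-boxes and repress the transcription that CLOCK and BMAL1 drive. *Bhlhe41* (chr6:145858243-145865558), which encodes DEC2, had 285, 413, 413, 277 and 433 normalized counts in young mice against 769, 667, 1077, 740.4 and 1077 in old mice. All old aortae lay above all young ones, with a log2 fold change of 1.26 (SE 0.18, adjusted p = 0.00124). Of its windows 16.4% were shared, mainly with *Gm43909* on the opposite strand, which had 41 counts in all young and 68 in all old libraries together. *Bhlhe40* (chr6:108660629-108666925), which encodes DEC1, had 585, 1054, 745, 553 and 573 normalized counts in the young vessels and 1131, 1034, 2044, 899 and 1254 in the old vessels. Young replicate 2 overlapped the old group, and old replicate 3 stood far above the others. The log2 fold change of 0.87 (SE 0.26, adjusted p = 0.0573) was not called, but it passed with DESeq2 (adjusted p = 0.0187), with limma-voom (0.0252), with scaling by library size alone (0.0476), and without young replicate 2 (0.0240) or old replicate 4 (0.0433).

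*Bhlhe40* is also expressed in immune cells. Of 8 macrophage marker genes, all had a positive fold change and 4 were called higher in old aortae by edgeR (*Cd68*, *Adgre1*, *C1qa* and *C1qb*), whereas DESeq2 called all 8. Of all 14614 tested genes, 7418 had a positive fold change and edgeR called 6.48% higher. DESeq2 called 1240 of the 28011 genes with a count higher. The summed level of the 8 macrophage genes was 8516 to 10960.1 normalized counts in young and 11119 to 22017 in old aortae. Old replicate 3 had the highest sum as well as the highest *Bhlhe40*. Old replicate 5 had the lowest sum of the old aortae (11119) but their next highest *Bhlhe40* (1254). Among young aortae replicate 1 had the highest sum (10960.1) and replicate 2 the highest *Bhlhe40* (1054). The part of macrophage RNA in the *Bhlhe40* values was not tested.

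*Ciart* (chr3:95878503-95882251), which encodes CHRONO, a repressor that binds BMAL1, was the least abundant of the genes and had the largest increase. It had 22.5, 53.3, 32.9, 36.7 and 108 normalized counts in the 5 young aortae and 223, 239.7, 295, 151 and 378 in the 5 old ones. The highest young value, again replicate 5, lay below the lowest old value. The means were 50.6 ± 33.7 and 257 ± 84.7 (SD, n = 5), 5.09-fold apart, with a log2 fold change of 2.36 (SE 0.39, adjusted p = 0.00350). These values rest on 22 to 389 counts per library. Of its windows 11.9% were shared, mainly with a gene that had 0 counts in every library. Omission of any 1 mouse left the log2 fold change of *Ciart* between 2.17 and 2.82.

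**Figure D4:**
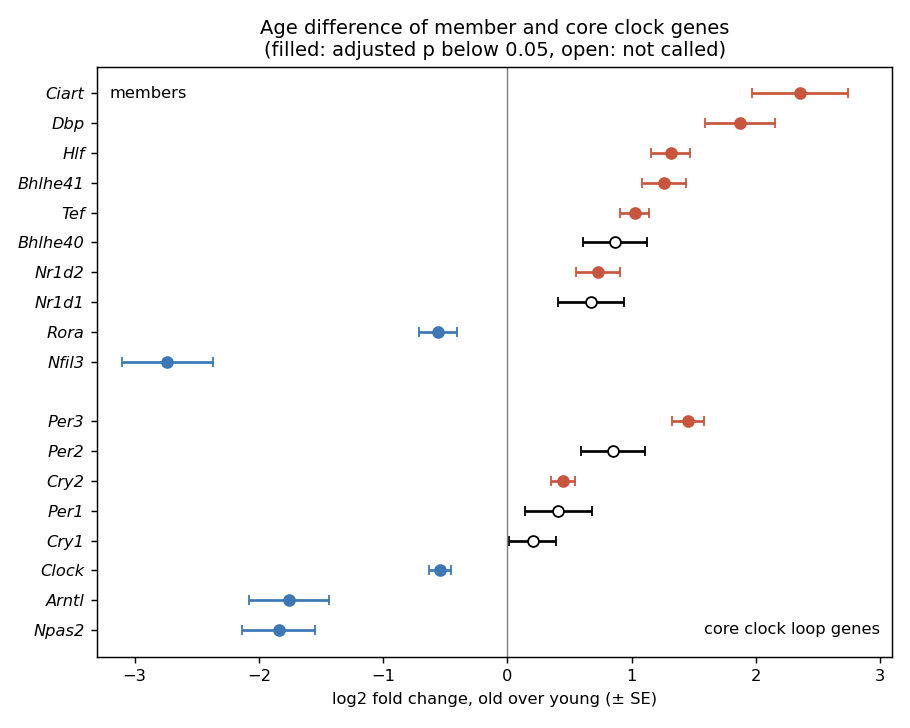
Log2 fold change, old over young, with its SE (x axis) for the 10 genes and for 8 core clock loop genes, with filled points for genes called by edgeR at an adjusted p below 0.05 and open points for the others. *Ciart* (2.36) and *Nfil3* (-2.74) mark the ends, and *Arntl* and *Npas2* lie with *Nfil3* on the lower side.

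The levels were compared between genes only as normalized counts per kilobase of exonic length. In young aortae *Nr1d1* (1248 ± 549, SD, n = 5) was the highest, followed by *Nfil3* (883 ± 243), *Tef* (382 ± 72.0), *Nr1d2* (374 ± 109), *Dbp* (361 ± 127), *Rora* (186 ± 45.8), *Bhlhe40* (149 ± 44.8), *Hlf* (67.1 ± 10.5), *Bhlhe41* (54.2 ± 11.4) and *Ciart* (22.4 ± 14.9). Neighbours in this order overlapped between mice except *Nfil3* with *Tef*, *Dbp* with *Rora*, and *Bhlhe40* with *Hlf*. In old aortae *Nr1d1* (1980.0 ± 251) stayed highest, followed by *Dbp* (1316 ± 435), *Tef* (773 ± 76.0), *Nr1d2* (617 ± 66.6), *Bhlhe40* (270.5 ± 95.7), *Hlf* (166 ± 39.3), *Nfil3* (132 ± 57.9), *Bhlhe41* (129 ± 29.2), *Rora* (126 ± 6.36) and *Ciart* (114 ± 37.5). Here the neighbours overlapped except *Dbp* with *Tef* and *Nr1d2* with *Bhlhe40*. *Nfil3* thus went from the second place to the seventh, and *Dbp* from the fifth to the second. The annotated exons of a gene are not all used in one transcript, so these levels are approximate for genes with several starts such as *Rora* and *Tef*.

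In the core loop that these factors serve, 5 of 8 genes were called, 2 higher and 3 lower in old aortae. Over all tested genes the share called was 11.5%, 6.48% higher and 4.99% lower. The activator *Arntl* had 886, 639, 715, 727 and 561 normalized counts in young mice and 349, 267, 139.8, 201 and 84.6 in old mice. No old aorta reached the young range, and the log2 fold change was -1.76 (SE 0.32, adjusted p = 0.00717). *Npas2*, which can take the place of CLOCK beside BMAL1, had 923 ± 251 and 256 ± 97.3 normalized counts (log2 fold change -1.84, SE 0.29, adjusted p = 0.00368). *Clock* itself fell less, from 2979 ± 94.6 to 2033 ± 299 (log2 fold change -0.54, SE 0.09, adjusted p = 0.00176). Of the repressors, *Per3* rose from 534 ± 85.4 to 1457 ± 248 (log2 fold change 1.46, SE 0.13, adjusted p = 4.96e-05) and *Cry2* from 1138 ± 180.2 to 1543 ± 110.1 (log2 fold change 0.45, SE 0.10, adjusted p = 0.0107). *Per2* (log2 fold change 0.85, SE 0.26, adjusted p = 0.0617), *Per1* (0.41, SE 0.27, adjusted p = 0.376) and *Cry1* (0.20, SE 0.19, adjusted p = 0.537) were not called. *Per2* passed in 5 of the 18 alternatives at this threshold, with DESeq2 (adjusted p = 0.0183), limma-voom (0.0230), scaling by library size alone (0.0460) and the replicate block (0.0318), and without young replicate 2 (0.0393). In these, 6 core loop genes were called, 3 of them higher. The RefSeq window of *Per3* held 2 D-boxes, at -205 and -158 bases, which 0.198% of all windows did. Of the 2 windows of *Arntl*, 1 held a half-site at 31 bases after the start, and a *Clock* window held one at -119. Among the genes not called, a *Per1* window held an E-box at -166 and a half-site at -137. The *Cry1* window held an E-box at -60 and an E-prime box at -79. *Cry2*, called higher, held an E-prime box at -166, and the *Npas2* window held no match. *Per2* had no window and was not searched.

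A wider list held 27 clock-associated genes, such as kinases, ligases and corepressors of the clock and outputs that are rhythmic in many tissues. Of these 26 were tested (*Rorb* was not), 1 was called higher and 1 lower, and the median log2 fold change was -0.03. Of all tested genes 11.5% were called. The gene called higher was *Tspan4*, a tetraspanin (log2 fold change 0.64, SE 0.14, adjusted p = 0.0124), and the gene called lower was *Thra*, described above. DESeq2 called 4 genes of this list and 2325 of the 28011 genes with a count. Without young replicate 1 edgeR called 4 genes of the list too.

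Mice of the same age also differed from each other in these genes. Young replicate 5 was the highest young aorta for *Dbp*, *Tef*, *Hlf*, *Nr1d1*, *Nr1d2*, *Bhlhe41* and *Ciart* and the lowest for *Nfil3* and *Arntl*. Old replicate 5 was the highest old aorta for *Dbp*, *Tef*, *Hlf*, *Nr1d2* and *Ciart* and the lowest for *Arntl*. To measure this, log2 CPM (counts scaled to the size of the library) were correlated over the 10 mice after the mean of each age was removed, with exact permutation within ages, for the 45 pairs of the genes and the 10 pairs of one of them with *Arntl*. Of these 55 pairs, 13 passed at an adjusted p below 0.05 (25 unadjusted), 10 of them positive and 3 negative. All points of a pair come from the same libraries and share their depth and scaling.

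*Dbp* took part in 6 of the 13 pairs. It varied with *Hlf* (r = 0.90, permutation p = 0.000556, adjusted p = 0.00955, Spearman's rho = 0.85, permutation p = 0.00535, adjusted p = 0.0490), and r was 0.93 without the 2 mice farthest from the median of *Dbp*. It varied with *Bhlhe41* (r = 0.90, permutation p = 0.00215, adjusted p = 0.0153, rho = 0.85, permutation p = 0.00514, adjusted p = 0.0490), where r was 0.83 without those mice. It varied inversely with *Arntl* (r = -0.82, permutation p = 0.000278, adjusted p = 0.00955, rho = -0.83, permutation p = 0.00194, adjusted p = 0.0267), where r was -0.92 without them. *Nr1d2* varied with *Ciart* (r = 0.92, permutation p = 0.00215, adjusted p = 0.0153, rho = 0.85, permutation p = 0.00771, adjusted p = 0.0606), and *Tef* with *Hlf* (r = 0.83, permutation p = 0.000694, adjusted p = 0.00955, rho = 0.90, permutation p = 0.00188, adjusted p = 0.0267). For these, r was 0.94 and 0.79 without the 2 farthest mice. No pair with *Nfil3*, *Rora* or *Bhlhe40* passed.

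By Spearman's rho 6 of the 55 pairs passed at an adjusted p below 0.05 (21 unadjusted). The count rested on single mice, since 2 pairs passed without young replicate 5, 4 without old replicate 5, 7 without young replicate 3 and 8 without young replicate 2.

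**Figure D5:**
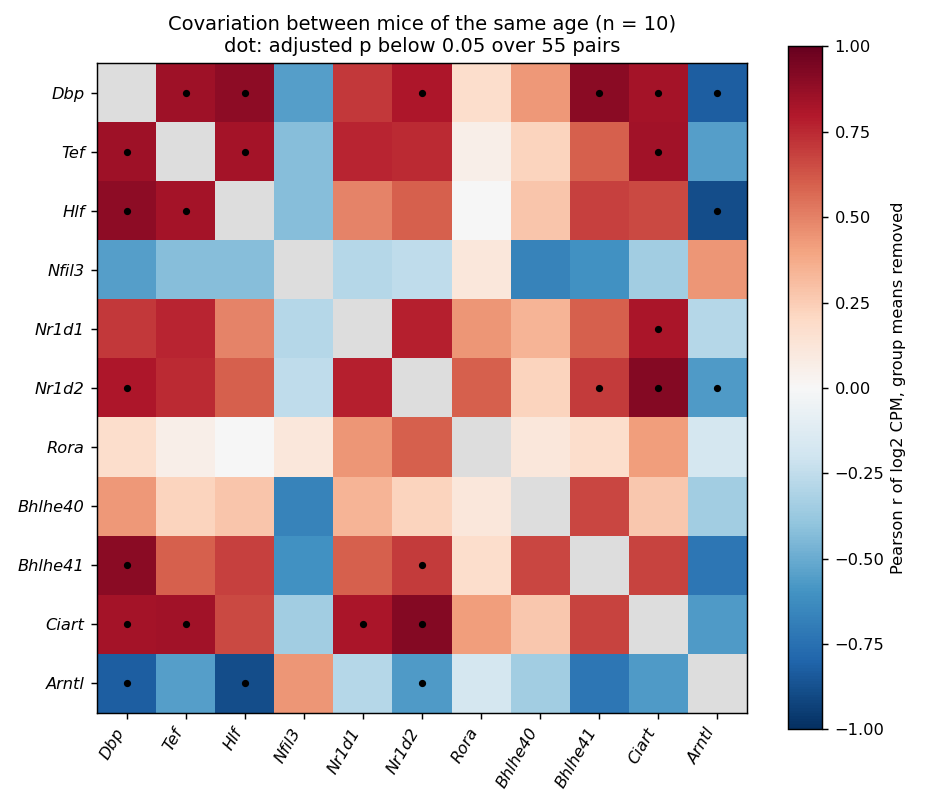
Pearson r of log2 CPM between pairs of the 10 genes and *Arntl* over 10 mice, with the mean of each age removed (colour, -1 to 1, both axes list the genes, grey on the diagonal), and a dot where the adjusted p is below 0.05. *Dbp*, *Tef*, *Hlf*, *Nr1d1*, *Nr1d2*, *Bhlhe41* and *Ciart* form a red block, 10 of the 13 dotted pairs are positive, and the 3 negative ones pair *Dbp*, *Hlf* and *Nr1d2* with *Arntl*.

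Over all 14614 tested genes and without removal of the age means, the genes most like a called member were often other members or *Per3*. For *Tef* the highest r was with *Per3* (0.99, or 0.87 with the age means removed), followed by *Hlf* and *Dbp*. *Dbp* was most like *Hlf*, *Bhlhe41* and *Rspo3*, which encodes a secreted enhancer of Wnt signaling, each at 0.98, and *Hlf* was most like *Dbp*, *Per3* and *Tef*. *Ciart* was most like *Tef*, *Dbp* and *Rspo3* (each 0.97), and *Nr1d2* most like *Ciart* (0.96), *9230114K14Rik* (0.96) and *Vat1* (0.95). *Bhlhe41* was most like *Ngef* (0.99), *Ephx1* and *Dbp*. *Nfil3* and *Rora* had no other member among their 3. *Nfil3* was most like *Leo1* (0.97), *Dusp10* and *Srrm4* (both 0.96), and *Rora* was most like *Tlr4*, *Slc35f5* and *Cttnbp2nl* (each 0.98). These are pooled values over 10 libraries, in which a difference between the ages raises r, and they are given as a description.

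The libraries held 19640401 to 22886153 counts on genes, with overlapping ranges in young and old aortae, and mitochondrial genes took 4.50% to 6.22% of the counts in young and 5.19% to 11.0% in old aortae, with old replicate 2 highest. Without that library 7 of the 10 clock genes were called, and *Rora* was the one lost (edgeR adjusted p = 0.0742). For the marker lists that follow, edgeR called 11.5% of all tested genes, 6.48% higher and 4.99% lower in old aortae. DESeq2 called 2325 of the 28011 genes with a count. Of 9 smooth muscle genes 1 was called by edgeR (*Smtn*, log2 fold change 0.29) and 2 by DESeq2. *Acta2* and *Myh11*, which define the cell type, had means of at least 220926 normalized counts in both ages. All 8 endothelial genes had negative fold changes (median -0.66, 1 called by edgeR, *Tek*, -0.87, and 4 by DESeq2), and their summed level was 19604 to 34067 in young and 10094 to 23547 in old aortae. Of 8 fibroblast genes edgeR called 1 higher (*Lum*) and 2 lower (*Pi16* and *Col1a1*), and DESeq2 called 4. Among 3 tested of 8 T and B cell genes *Cd4* was called higher by edgeR, and DESeq2 called *Cd4* with *Jchain* and *Cd3e*, which did not pass edgeR's low-count filter. The sum over the list was 20.1 to 95.1 in young and 61.0 to 386 in old aortae. Adipocyte genes had a median of -0.92 with 0 of 8 called by edgeR (4 at an unadjusted p below 0.05, 1 by DESeq2), and their sum was 6533 to 21945 in young aortae, where replicate 1 was highest, and 4760 to 10178 in old ones. *Prx* was higher among 6 tested Schwann cell and nerve genes, and 0 of 5 tested skeletal muscle genes and 0 of 5 erythroid genes were called by edgeR (0 at an unadjusted p below 0.05 and 0 by DESeq2 in either list). The part of the cell composition in the clock gene differences was not tested.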

How the data were processed

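Poly(A) RNA of 10 mouse aortae was sequenced (TruSeq Stranded mRNA kit), 1 library per mouse. The authors filtered reads with fastp 0.20.0, aligned them to GRCm38 with STAR 2.7.0f and counted them per gene (GENCODE M22) with featureCounts of Subread 1.6.4, per the labels' processing notes and the paper. The deposited values are these raw counts, without normalization. The strand setting of the counting and the treatment of reads with several alignments are not given in the sources used here, so reads from exons shared with a gene on the opposite strand cannot be told apart.

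All genes were fitted with edgeR 4.0.16 (filterByExpr defaults, TMM scaling, quasi-likelihood F test, robust fit, without covariates; R 4.3.3). Benjamini-Hochberg adjustment ran over 14614 tested genes, and genes were called at an adjusted p below 0.05. Unless another tool is named, adjusted p-values and fold changes come from this fit. The SE of an edgeR log2 fold change was derived as its absolute value over the square root of the F statistic. Normalized counts are counts over DESeq2 1.42.0 size factors. Positions and exonic lengths are from GENCODE M21 (GRCm38), and a gene's shared windows are its 50-base windows found in other genes' transcripts on either strand. Correlations used log2 TMM CPM (prior count 2), with 2-sided exact permutation within ages and Benjamini-Hochberg adjustment over 55 pairs. Alternatives were other scalings and filters, DESeq2, limma-voom (limma 3.58.1), the replicate number as a block, a threshold of 0.01, and omission of each mouse. The scripts were tested on simulated counts.

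Counts within a group differed by 8.60 to 64.8 times counting error (chi-square per degree of freedom), so no library repeated another. The genes, lists and rules were chosen with earlier results of these data known. The text names the 10 genes, 8 core loop genes, up to 4 called genes per other list and direction, the 3 genes most correlated with each called gene, genes with overlapping exons, and, chosen after their values were seen, *Rorb*, *Jchain*, *Cd3e*, *Acta2* and *Myh11*.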

Additional observations from a re-analysis of the deposited data

How the results depend on the processing

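The 10 genes gave 190 results under the 19 alternatives, of which those at the threshold of 0.01 reuse the main fold changes. Of the 190, 168 kept their direction and their side of the threshold, 16 lost the call, 6 gained it and 0 reversed. The lost calls include those of *Nr1d2* and *Rora* at the threshold of 0.01 alone. *Dbp*, *Tef*, *Hlf*, *Nfil3*, *Bhlhe41* and *Ciart* were called in all 19 alternatives. Over all tested genes, same-numbered mice of the ages did not deviate together (r of -0.3 to 0.132 over 5 numbers), and the labels name no pairing. For the 10 genes the replicate block lowered the SE of all but *Nfil3*. The SE of *Dbp* went from 0.282 to 0.135 and that of *Nr1d2* from 0.178 to 0.108 (adjusted p = 0.00347). For *Nfil3* it went from 0.365 to 0.411. Whether mice of the same number shared a condition was not tested. With the replicate block edgeR called 1261 genes instead of 1676 and 7 of the 10 members instead of 8, with *Rora* at an adjusted p of 0.0684 and *Nfil3* at 0.02, and 6 core loop genes instead of 5, with *Per2* at 0.0318. At a threshold of 0.01, 658 genes and 1 gene of the clock-associated list were called. DESeq2 called 2325 genes and 4 genes of that list instead of 2, and with each mouse left out edgeR called 2 to 4. The number of correlated pairs ranged from 2 to 19 with each mouse left out, against 13, so single pairs are weakly determined by 10 mice. Omission of a mouse moved the count of called genes from 1132, when young replicate 4 was omitted, to 2367, when young replicate 1 was omitted. The share of called genes that were higher was 56.5%, and between 54.3% and 63.6% under other scalings. Depth limits *Ciart* most, with as few as 22 counts in a library.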

Other observations

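*Nfil3* and *Bhlhe40* also respond to acute stimuli, so the levels of inducible genes in the same libraries are given here. Of 19 immediate early genes, which respond within minutes to stress or handling, 1 was called higher and 2 were called lower with age by edgeR. DESeq2 called 7, some in each direction. As background for this list and the next, edgeR called 11.5% of all tested genes. DESeq2 called 2325 of the 28011 genes with a count. *Junb* rose from 1181 ± 260.3 to 2009 ± 369.8 normalized counts (SD, n = 5, edgeR log2 fold change 0.77, SE 0.16, adjusted p = 0.00957). *Fosb* fell from 926 ± 362 to 412 ± 133 (log2 fold change -1.16, SE 0.30, adjusted p = 0.0337) and *Atf3*, a stress-induced bZIP repressor, from 2725 ± 1246 to 557 ± 194 (log2 fold change -2.28, SE 0.39, adjusted p = 0.00596). The summed level of the list overlapped between the ages, from 24891 to 49323 in young and from 19964 to 37070.2 in old aortae. Of 12 glucocorticoid-responsive genes, edgeR called 1, *Errfi1*, an inhibitor of the EGF receptor, which fell from 4762 ± 1294 to 1840.5 ± 493 normalized counts (log2 fold change -1.36, SE 0.23, adjusted p = 0.00447). Their sum was 24326 to 42767 in young and 18584 to 35380.1 in old aortae. The part of such responses in the *Nfil3* and *Bhlhe40* values was not tested.

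The spread between mice also varied among the 10 genes and the 8 core loop genes. The coefficient of variation was higher in young than in old aortae for 10 of the 18 genes and lower for 8. It was over 1.5 times higher in young aortae for 7 genes, which were *Tef* (18.9% against 9.84%), *Nr1d1* (44.0% against 12.7%), *Nr1d2* (29.2% against 10.8%), *Rora* (24.6% against 5.07%), *Ciart* (66.7% against 32.9%), *Per2* (36.2% against 21.3%) and *Cry2* (15.8% against 7.13%). It was over 1.5 times higher in old aortae for 4 genes, given here also as young against old, which were *Hlf* (15.6% against 23.7%), *Nfil3* (27.5% against 43.8%), *Arntl* (17.1% against 49.9%) and *Clock* (3.18% against 14.7%). The ratio of 1.5 was chosen after the values were seen, and these differences in spread between groups of 5 mice were not tested.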
